A study of Rattus norvegicus with 13 samples.

Results

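The EGF receptor family is described here through 10 genes, the 4 receptors Egfr, Erbb2, Erbb3 and Erbb4 and the 6 ligands Areg, Ereg, Btc, Hbegf, Tgfa and Nrg1. They were taken by name as genes of 1 family. All 10 were among the 14790 genes measured by RNA-seq in rat mammary epithelial cells. The cells came from the abdominal and inguinal mammary glands of female Wistar-Furth rats, a strain susceptible to mammary cancer, with no treatment named. One age was 6 weeks, with 6 rats, which the authors place within the window of susceptibility (WOS), the ages of high cancer risk from exposure. The other was 10 weeks, with 7 rats, which they place outside WOS. They also describe the 6-week rats as entering WOS and the 10-week rats as exiting it. Every rat gave 1 library. Lymph nodes were removed, the tissue was digested with collagenase, and ductal fragments were kept on a filter, so that the material is enriched for epithelium and can still hold fibroblasts and immune cells.

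Receptors of this family sit in the cell membrane and pair up when a ligand binds. Egfr binds Areg, Ereg, Btc, Hbegf and Tgfa, whereas Erbb3 and Erbb4 bind neuregulins such as Nrg1, and Erbb2 has no known ligand of its own and acts as the partner of the others. Most ligands are made as membrane proteins and are cut free by proteases before they act. In the mammary gland the family is known for its part in ductal growth, in which amphiregulin (Areg) is released by hormone-sensing luminal cells and reaches Egfr on neighbouring cells. Bound receptors signal through the RAS-MAPK and PI3K cascades, which switch on immediate early genes and, with them, inhibitors that shut the receptors down again.

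Within WOS, epiregulin (Ereg) was 2.39-fold higher than outside WOS, and heparin-binding EGF-like growth factor (Hbegf) was 1.63-fold higher outside WOS than within it. The other 8 members, among them all 4 receptors, did not pass the test, in which limma on log2(normalized count + 1) gave p-values adjusted over all genes with a threshold of 0.05. The members called were thus 1 of 10 higher at 6 weeks and 1 of 10 higher at 10 weeks. Over all genes tested, 8.71% were higher at 6 weeks and 7.39% at 10 weeks, so the share of the members called was close to that of all genes. The median log2 fold change of the members, 6 weeks over 10 weeks, was 0.012, and that of all genes was 0.028.

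The DNA upstream of Hbegf is shown because Hbegf was the member with the smallest p-value, that of Errfi1 because it encodes an inhibitor of the receptors that differed in the same direction, and that of Areg because Areg lies beside Ereg and was not called. The sequences are the 250 bases before the annotated start of each gene from RefSeq (build GRCr8), 5′ to 3′ along the gene. Hbegf covers chr18:28390221-28390470 on the minus strand, Errfi1 chr5:166606591-166606840 on the plus strand and Areg chr14:17265642-17265891 on the minus strand. Capitals mark matches to any of 7 motifs searched on both strands, the cyclic AMP response element TGACGTCA, the AP-1 site TGANTCA, the EGR site GCGNGGGCG, the palindromic oestrogen response element, the GC box GGGCGG, the TATA box TATAAA and the CArG box.
Hbegf: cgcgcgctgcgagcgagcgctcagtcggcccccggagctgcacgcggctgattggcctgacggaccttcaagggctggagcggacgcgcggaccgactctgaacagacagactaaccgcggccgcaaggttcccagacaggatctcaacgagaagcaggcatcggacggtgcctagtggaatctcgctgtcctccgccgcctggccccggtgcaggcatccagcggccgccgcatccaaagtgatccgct
Errfi1: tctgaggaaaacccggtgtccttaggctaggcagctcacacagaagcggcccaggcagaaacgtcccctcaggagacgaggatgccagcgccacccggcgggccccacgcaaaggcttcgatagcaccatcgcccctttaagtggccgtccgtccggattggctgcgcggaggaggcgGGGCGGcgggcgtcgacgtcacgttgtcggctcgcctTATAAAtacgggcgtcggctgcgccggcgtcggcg
Areg: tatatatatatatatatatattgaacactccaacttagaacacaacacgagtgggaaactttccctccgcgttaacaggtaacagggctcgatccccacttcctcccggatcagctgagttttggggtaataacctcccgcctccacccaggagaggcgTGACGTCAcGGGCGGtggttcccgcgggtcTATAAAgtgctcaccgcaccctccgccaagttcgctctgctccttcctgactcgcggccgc

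Of the 10 members, 7 had such a sequence in the RefSeq table, and Ereg, Erbb3 and Nrg1 had none. Among these 7, Areg was the member with a match to TGACGTCA, 91 bases before its start, which 1.59% of all 33469 upstream sequences also held. In the Areg sequence a GC box follows 82 bases before the start and a TATA box 61 bases before it. GC boxes were found in 6 of the 7, against 30.5% of all, and a TATA box in Areg alone, against 12.9% of all. The 33469 sequences were not matched to the members for gene type or base content. None of the 7 held the AP-1 site (6.34% of all), the EGR site (4.29%), the oestrogen response element (0.0239%) or the CArG box (1.5%). The Hbegf sequence held no match to any motif searched, and the Errfi1 sequence held a GC box at 72 and a TATA box at 35 bases before the start. A match or its absence describes the letters of these windows and says nothing of a factor that may act there.

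The values are read counts that were scaled per library and rounded, and are called normalized counts here. They sum to between 13261906 and 15659533 per rat at 6 weeks and to between 13766735 and 15402814 at 10 weeks. In 7 rats, 2 at 6 weeks and 5 at 10 weeks, some whole numbers from 1 to 60 never occur, which shows that those libraries were scaled up and had fewer reads than their totals give, so low values are less precise in them. With the age means removed, the first principal component held 28.3% of the variation and placed 5 rats (75 and 80 at 6 weeks and 78, 81 and 83 at 10 weeks) apart from the other 8. Both sets hold rats of both ages, and the ages are compared within each set wherever the sets bear on a member. Gene lengths were not used, so levels are compared between rats and not between genes.

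**Figure D1:**
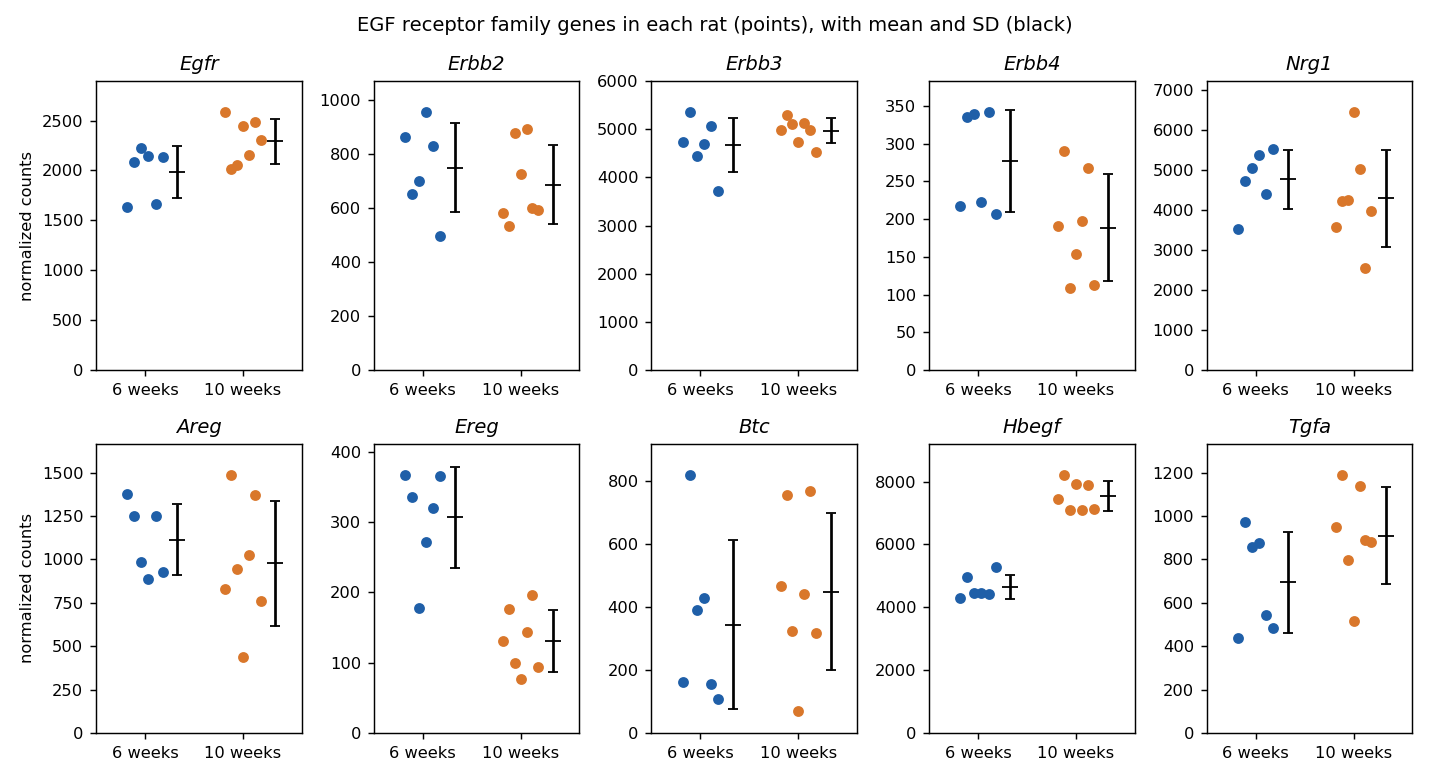
Normalized counts of the 10 EGF receptor family genes (y axis, from 0 in every panel) at 6 weeks (blue) and 10 weeks (orange), with 1 point per rat and the mean and SD in black. The ages do not overlap for Hbegf, nearly separate for Ereg and overlap for the other 8 genes.

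Of the receptors, Erbb4 differed most between the ages and still did not pass the test. Erbb4 (ENSRNOG00000014248), the neuregulin receptor known for its role in alveolar differentiation and lactation, ranged from 207 to 342 normalized counts at 6 weeks with a median of 279.5, and from 109 to 290 at 10 weeks with a median of 191. At 6 weeks 3 of 6 rats lay above every 10-week rat, and at 10 weeks 5 of 7 rats lay below every 6-week rat, while the remaining values overlapped. The log2 fold change was 0.60 (SE 0.25, 95% interval 0.063 to 1.15, limma adjusted p = 0.117). The difference was 0.40 within the set of 8 rats and 0.88 within the set of 5. Under limma's sample quality weights, which count variable libraries for less, Erbb4 was called (0.76, limma adjusted p = 0.024).

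Egfr (ENSRNOG00000004332), the receptor for most of the ligands described here, ran from 1638 to 2223 normalized counts at 6 weeks (median 2111.5) and from 2011 to 2585 at 10 weeks (median 2300). At 10 weeks 4 of 7 rats lay above every 6-week rat, and no 6-week rat lay above the 10-week median. The log2 fold change was nevertheless small, at -0.21 (SE 0.11, 95% interval -0.46 to 0.025, limma adjusted p = 0.203). It was -0.32 among the 8 rats and -0.021 among the 5. Under the same weights Egfr was called (-0.30, limma adjusted p = 0.0304).

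Erbb2 and Erbb3, which form the most potent signalling pair of the family, showed no difference beyond the spread between rats. Erbb2 (ENSRNOG00000006450) ranged from 499 to 957 normalized counts at 6 weeks (median 766.5) and from 536 to 893 at 10 weeks (median 602), with a log2 fold change of 0.12 and a 95% interval of -0.26 to 0.50 (limma adjusted p = 0.672). The lowest and the highest Erbb2 values both belonged to 6-week rats. Erbb3 (ENSRNOG00000004964), whose kinase is nearly inactive and which depends on its partner, ranged from 3710 to 5358 at 6 weeks (median 4714.5) and from 4535 to 5286 at 10 weeks (median 4981). Its log2 fold change was -0.097 with a 95% interval of -0.31 to 0.11 (limma adjusted p = 0.527). The intervals of both genes leave out a difference of 1 on the log2 scale in either direction.

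Among the ligands, Ereg (ENSRNOG00000002771), which binds Egfr and Erbb4 and is known from inflammation and wound repair, was the member that was higher within WOS. At 6 weeks it ranged from 178 to 367 normalized counts with a median of 328, and at 10 weeks from 77 to 196 with a median of 130. At 6 weeks 5 of 6 rats lay above every 10-week rat, and the only overlap was between rat 75 at 178 and rat 85 at 196. The mean was 306 ± 71.9 (SD, n = 6) at 6 weeks and 131 ± 44.3 (SD, n = 7) at 10 weeks. The log2 fold change was 1.26 (SE 0.24, 95% interval 0.74 to 1.77, limma adjusted p = 0.00457), with a rank of 515 by p-value among all genes. In these bulk samples fewer cells of a type and less RNA per cell cannot be told apart, for Ereg and for every gene that follows.

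Hbegf (ENSRNOG00000018646), a ligand of Egfr and Erbb4 that is induced rapidly by growth factor signalling, stress and injury, was the member that was higher outside WOS. It ranged from 4293 to 5279 normalized counts at 6 weeks (median 4449) and from 7102 to 8216 at 10 weeks (median 7437). Every 10-week rat lay above every 6-week rat, as in 2.78% of all genes (6.07% in either direction), and the spread within an age was among the smallest of the members, at 8.29% of the mean at 6 weeks and 6.18% at 10 weeks. The log2 fold change was -0.70 (SE 0.087, 95% interval -0.89 to -0.51, limma adjusted p = 0.000319), with a rank of 92 by p-value.

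Both calls were examined within the sets of rats. Within the set of 8 rats Ereg differed by 1.27 (limma adjusted p = 0.00951) and Hbegf by -0.70 (limma adjusted p = 0.00691), so both calls held there. Within the set of 5 rats the differences were 1.09 for Ereg (limma adjusted p = 0.326) and -0.73 for Hbegf (limma adjusted p = 0.248), and 0 genes of the whole table passed the adjusted threshold in limma there, against 1976 at an unadjusted p under 0.05. Leaving out any 1 rat kept both calls, with log2 fold changes of 1.14 to 1.40 for Ereg and -0.74 to -0.68 for Hbegf.

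**Figure D2:**
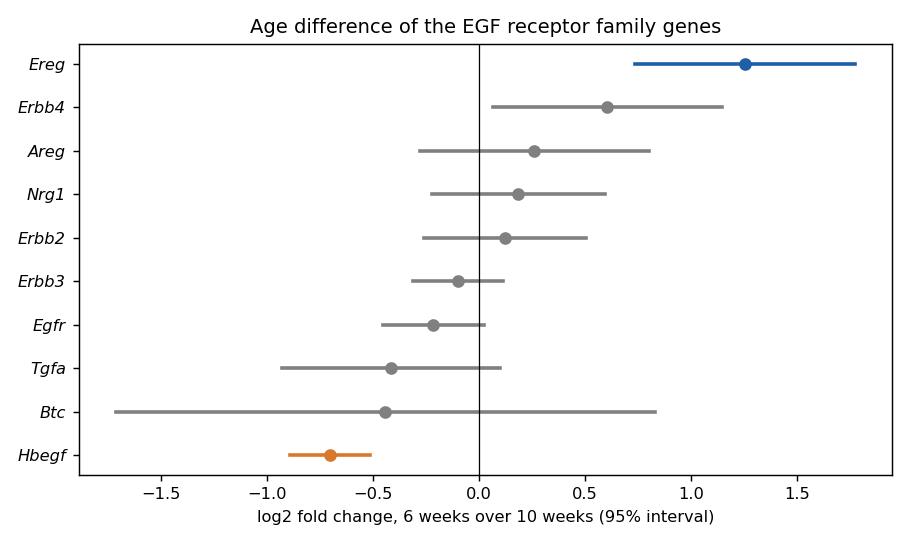
Log2 fold change of each EGF receptor family gene, 6 weeks over 10 weeks (x axis), with its 95% interval from limma, sorted by size. Ereg (blue, 1.26) was called higher at 6 weeks and Hbegf (orange, -0.70) higher at 10 weeks, and the genes in grey were not called.

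The other ligands were not called. Areg (ENSRNOG00000002754), the oestrogen-induced ligand that ductal outgrowth depends on, ranged from 888 to 1377 normalized counts at 6 weeks (median 1116) and from 436 to 1488 at 10 weeks (median 946), with a log2 fold change of 0.26 (95% interval -0.28 to 0.80, limma adjusted p = 0.506). The 10-week rats enclosed all 6-week rats, and without rat 81 the log2 fold change was 0.081. Nrg1 (ENSRNOG00000010392), the neuregulin that binds Erbb3 and Erbb4, ranged from 3521 to 5532 at 6 weeks (median 4880) and from 2546 to 6448 at 10 weeks (median 4237), again with the 10-week rats on both sides. Its log2 fold change was 0.19 (95% interval -0.22 to 0.59, limma adjusted p = 0.532), and 0.069 without rat 85.

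Tgfa (ENSRNOG00000016182), an Egfr ligand, ranged from 436 to 970 normalized counts at 6 weeks (median 699) and from 516 to 1190 at 10 weeks (median 888). The ages overlapped over most of this range, and the log2 fold change was -0.42 (95% interval -0.93 to 0.098, limma adjusted p = 0.249). Betacellulin (Btc, ENSRNOG00000002728), which binds Egfr and Erbb4, was the most variable member, with an SD of 78.3% of the mean at 6 weeks and 55.7% at 10 weeks. It ranged from 107 to 819 at 6 weeks (median 275) and from 68 to 767 at 10 weeks (median 440), with a log2 fold change of -0.44 and a wide 95% interval of -1.71 to 0.83 (limma adjusted p = 0.641). The sets of rats differed in sign for both genes. Btc differed by -1.32 within the 8 rats and by 0.93 within the 5, and Tgfa by -0.74 and 0.15, and none of these passed the test.

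Differences between members within a rat do not depend on how the library was scaled, since the factor cancels up to rounding and the pseudocount of 1. Of the 45 pairs of members, 6 had no overlap between the ages in this difference, and each of the 6 held Hbegf or Ereg. These are given as a description with no test. Ereg and Hbegf are the called members, so these pairs largely restate those differences and are no separate finding. The share of such pairs among other genes was not computed. Relative to Hbegf, Ereg stood at -3.95 ± 0.37 on the log2 scale at 6 weeks (SD, n = 6) and at -5.91 ± 0.47 at 10 weeks (SD, n = 7), the largest shift among the 6 pairs at 1.96. Areg relative to its neighbour Ereg stood at 1.88 ± 0.36 at 6 weeks and 2.87 ± 0.26 at 10 weeks, and Erbb3 relative to Ereg shifted by -1.35. Hbegf shifted against its receptors as well, with Egfr minus Hbegf at -1.24 ± 0.17 at 6 weeks and -1.72 ± 0.16 at 10 weeks, and Erbb4 minus Hbegf shifted by 1.31. Hbegf minus Nrg1 shifted by -0.89.

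Btc, Areg and Ereg lie in 1 cluster of ligand genes on chromosome 14, together with epigen (Epgn), a further Egfr ligand. In the RefSeq order of GRCr8 the genes run Parm1, Btc, Areg, Ereg, Epgn, Mthfd2l, Cxcl2 and Cxcl1, with 0 other protein-coding genes between Btc and Epgn. Along this order the log2 fold changes were 0.17, -0.44, 0.26, 1.26, 0.48, 0.073, -0.39 and -0.19, and Ereg was the 1 gene of these 8 that passed the test with all rats weighted equally. Epgn, on the far side of Ereg, ranged from 52 to 122 normalized counts at 6 weeks and from 45 to 102 at 10 weeks, with overlap (limma adjusted p = 0.154). Epgn was called under sample quality weights (0.77, limma adjusted p = 0.00614) and without rat 80 (0.63, limma adjusted p = 0.0426), but not within the set of 8 rats (0.75, limma adjusted p = 0.0517). Of the outer genes, Parm1 had a limma adjusted p of 0.542, Mthfd2l of 0.805, and the chemokine genes Cxcl2 and Cxcl1 of 0.29 and 0.596.

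**Figure D3:**
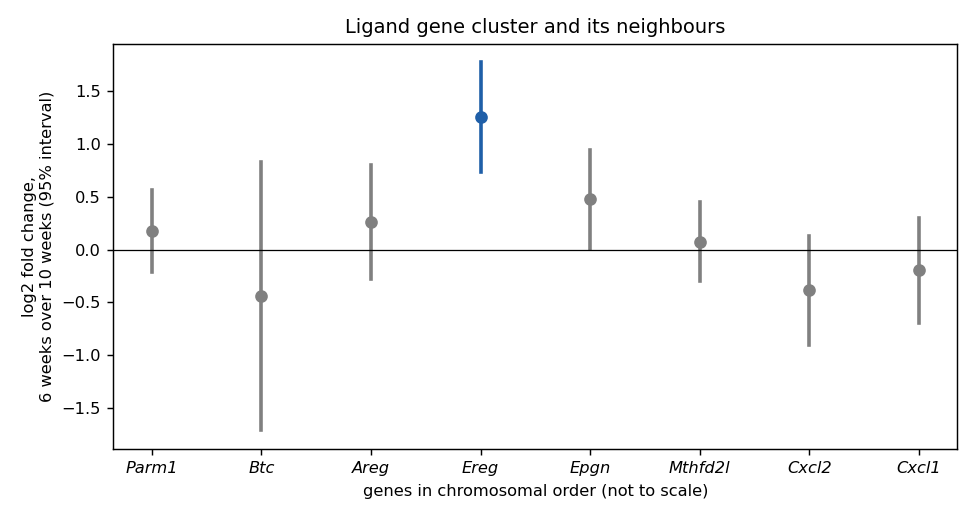
Log2 fold change, 6 weeks over 10 weeks (y axis), with 95% intervals for the genes of the ligand cluster and its neighbours, placed in chromosomal order and not to scale. Ereg (blue) was called, whereas Areg and Epgn on either side of it (0.26 and 0.48) were not.

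Around the receptors, 94 genes were grouped into 7 lists by their role, and 93 of them were in the table. Of these 93, 4 were higher at 6 weeks and 16 at 10 weeks, which is 21.5% called against 16.1% of all genes tested. By direction, 8.71% of all genes were higher at 6 weeks and 7.39% at 10 weeks. The 4 further ligands in the table were not called. Epgn had means of 93.5 normalized counts at 6 weeks and 66.9 at 10 weeks, and Nrg2, a neuregulin, had means of 5.17 and 8.57, too low to weigh.

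The inhibitors that act on the receptors themselves had 3 of 14 genes called, all higher at 10 weeks, with a median log2 fold change of -0.065 over the list. Errfi1 (also known as Mig6), which binds the kinase of Egfr and its relatives and blocks it, ranged from 9376 to 10697 normalized counts at 6 weeks and from 15524 to 22337 at 10 weeks. The ages stood far apart, and the 6-week rats were close together. Errfi1 had a mean of 10194 ± 478 (SD, n = 6) at 6 weeks and 19106 ± 2163 (SD, n = 7) at 10 weeks, a log2 fold change of -0.90 (SE 0.097, limma adjusted p = 0.00017). By p-value it ranked 34 among all genes, ahead of every member of the family. Ptprk, a phosphatase that acts on Egfr, differed by -0.47 (limma adjusted p = 0.0154), and Socs5, which promotes breakdown of Egfr, by -0.29 (limma adjusted p = 0.0303).

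Genes that shed or move the ligands had 2 of 12 called, both higher at 6 weeks, with a median of 0.16. Adam12, a metalloprotease that can release Hbegf from the membrane and is made by mesenchymal cells, ranged from 190 to 401 normalized counts at 6 weeks and from 22 to 92 at 10 weeks. The ages did not overlap, which held in this direction for 3.29% of all genes, and the log2 fold change was 2.47 (SE 0.33, limma adjusted p = 0.000468). Adam15 differed by 0.55 (limma adjusted p = 0.0343). Adam17, the main protease for Areg, Ereg, Hbegf and Tgfa and named here after its values were seen, differed by -0.17 (limma adjusted p = 0.249).

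The RAS-MAPK cascade had 3 of 19 genes called and a list median of -0.13. All 3 were higher at 10 weeks with no overlap between the ages. Grb2, named here after its values were seen, did not overlap either and was not called (-0.20, limma adjusted p = 0.0978). Over all genes, called or not, 2.78% were higher at 10 weeks without overlap. Braf, a kinase at the head of the MAPK cascade and 1 of the 3, ranged from 230 to 411 normalized counts at 6 weeks. At 10 weeks it ranged from 419 to 594. The highest 6-week rat and the lowest 10-week rat thus stood close together. Braf differed by -0.64 (limma adjusted p = 0.0164), and Sos1, the exchange factor that loads RAS with GTP, by -0.43 (limma adjusted p = 0.0325). On the PI3K branch 1 of 14 genes was called, Pdpk1, the kinase that activates AKT, at -0.37 (limma adjusted p = 0.026), with a list median of 0.074.

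Inhibitors that feed back on the MAPK cascade moved in both directions, with 2 of 10 higher at 6 weeks and 2 of 10 higher at 10 weeks and a median of 0.027. Dusp6, the phosphatase that inactivates ERK in the cytoplasm, ranged from 2899 to 4336 normalized counts at 6 weeks and from 4797 to 6173 at 10 weeks with no overlap, a log2 fold change of -0.59 (limma adjusted p = 0.00738). Dusp5, its nuclear relative, differed by -0.43 (limma adjusted p = 0.034). Spry1 and Spred2, which act above the cascade, were higher at 6 weeks by 0.40 (limma adjusted p = 0.0308) and 0.50 (limma adjusted p = 0.0307).

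Immediate early genes, which the cascade switches on within minutes, had 7 of 20 called, all higher at 10 weeks, and a median of -0.20. Myc, a transcription factor that drives growth, ranged from 2731 to 3566 normalized counts at 6 weeks and from 4234 to 6359 at 10 weeks, with no overlap. Its log2 fold change was -0.73 (limma adjusted p = 0.00172). Klf6 differed by -0.54 (limma adjusted p = 0.00265), the AP-1 subunit Fosl1 by -0.57 (limma adjusted p = 0.00829) and Egr3 by -0.68 (limma adjusted p = 0.013). Fos, named after its values were seen, differed by 0.29 in the other direction (limma adjusted p = 0.303). Immediate early genes also respond to tissue digestion, and the summed normalized counts of the list ran from 51516 to 75773 at 6 weeks and from 67387 to 95127 at 10 weeks. The summed list had a Pearson r of -0.44 with Hbegf within the ages, over 13 rats, given as a description. The part of tissue handling in the differences of Hbegf and these genes was not tested.

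**Figure D4:**
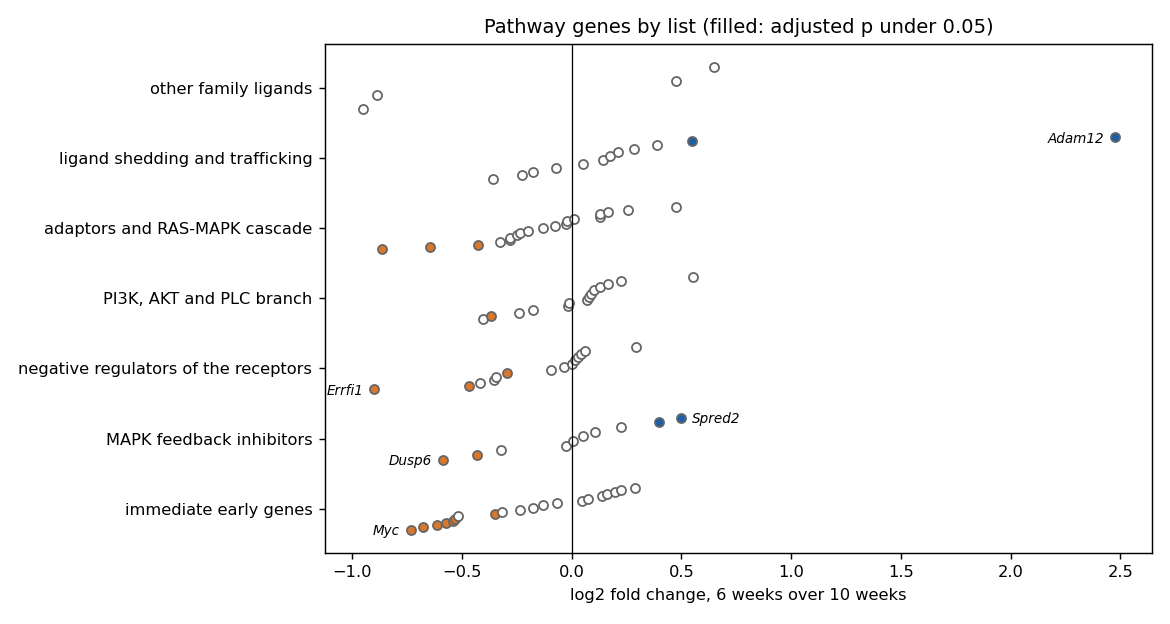
Log2 fold change, 6 weeks over 10 weeks (x axis), of the genes in 7 lists around the EGF receptors (rows), with 1 point per gene, filled blue where called higher at 6 weeks and orange where called higher at 10 weeks. Errfi1 at -0.90 was the lowest of the called genes, and Adam12 at 2.47 stands apart on the right.

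Some of these calls depended on which rats were in the fit. Leaving out 1 rat at a time, the calls of Adam15, Dusp5, Pdpk1, Socs5, Sos1, Spred2 and Spry1 were lost in some fits, with adjusted p of up to 0.0796 in limma. The calls of Errfi1, Adam12, Braf, Dusp6, Ptprk, Myc, Klf6, Fosl1 and Egr3 were kept in all 13. Without rat 74 the lists held 13 calls in place of 20. Under scaling to library size the calls of Dusp5, Pdpk1, Socs5 and Sos1 were lost (limma adjusted p = 0.0914, 0.0765, 0.0994 and 0.0507). Within the set of 8 rats those of Adam15, Dusp5, Socs5, Spred2 and Spry1 were lost (limma adjusted p = 0.0508, 0.088, 0.0558, 0.072 and 0.0962).

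Markers of other cell types moved with age beside these results. The epithelial markers of the labelled tissue were abundant in every rat, with the summed pan-luminal markers at 28592 to 58325 normalized counts at 6 weeks and 40295 to 66912 at 10 weeks, where 1 of 8 was called (Epcam, higher at 10 weeks), and basal markers at 26222 to 40734 and 36311 to 47289, where 1 of 10 was called, also higher at 10 weeks. Fibroblast markers had 6 of 9 genes higher at 6 weeks and 0 higher at 10 weeks. Their sum ran from 135746 to 268650 at 6 weeks against 24989 to 71508 at 10 weeks, with no marker at 0 in any rat. Most of this sum came from the matrix genes Col3a1, Col1a1 and Postn. Pdgfra (log2 fold change 0.13), Dcn (0.57) and Dpt (0.52) were not called, whereas Lum (2.02), Fap (2.19) and Pdgfrb (0.73) were called higher at 6 weeks. Whether the sum follows the number of fibroblasts was not tested. Mast cell markers had 7 of 7 higher at 6 weeks (summed 795 to 2068 against 48 to 479), and red blood cell markers 5 of 5 entries of 4 gene symbols (1854 to 5679 against 254 to 1226). Their part in the differences of Ereg, Hbegf, Errfi1 and Adam12 was not tested. Within the ages, over 13 rats, the sum of the fibroblast markers had a Pearson r of -0.36 with Ereg and of -0.29 with Hbegf, given as a description.

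The remaining marker lists had fewer calls. Hormone-sensing luminal markers, a list that includes Areg itself, had 1 of 8 higher at 6 weeks (Cited1), and luminal progenitor and alveolar markers had 2 of 10 higher at 10 weeks (Kit and Ehf). Adipocyte markers had 3 of 8 higher at 6 weeks, endothelial markers 1 of 8 and lymphocyte markers 1 of 4. The lymphocyte call was Cd79b, with means of 7.17 normalized counts at 6 weeks and 1.14 at 10 weeks, too low to weigh. The adipocyte calls were low too, with means of 10.2 and 2.29 for Plin1, 33.7 and 7 for Adipoq and 80.5 and 30.6 for Cfd. The more abundant Fabp4 (1745 and 1888) was not called. Macrophage markers had 0 of 9 called in limma, with sums of 875 to 2005 at 6 weeks and 1019 to 2250 at 10 weeks, and skeletal muscle markers 0 of 3 and Schwann cell and nerve markers 0 of 7.

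Members were also compared with each other across the 13 rats after the age means were removed, over 45 pairs with p-values from a permutation test within the ages. In 1 pair the adjusted p of the Pearson r was under the threshold, Btc with Tgfa, at r = 0.902 (permutation p = 0.00069, adjusted p = 0.0311) and rho = 0.89 (permutation p = 0.0012, adjusted p = 0.054). Without the rats farthest from the median of Btc, rats 86 and 81, r was 0.829, and within the set of 8 rats it was 0.876. The order was not the same throughout, since rat 85 had the highest Btc of the 10-week rats (767) and their median Tgfa (888). The summed hormone-sensing markers, given as a description, had a Pearson r of 0.88 with Btc and of 0.74 with Tgfa over the same 13 rats. The summed luminal progenitor and alveolar markers had an r of -0.78 with Btc and -0.77 with Tgfa. Milk protein genes set much of the latter sum, with Csn3 at 3514 to 40625 and Csn2 at 4 to 13439 normalized counts at 10 weeks. That sum need not follow the number of such cells.

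Areg and Ereg, neighbours in the cluster, followed each other less closely, at r = 0.774 (permutation p = 0.00252, adjusted p = 0.0567) and rho = 0.775, with 0.657 without rats 74 and 81 and 0.783 within the set of 8. Erbb2 and Hbegf had an r of -0.755 (permutation p = 0.00662, adjusted p = 0.0993) and a rho of -0.758, with -0.606 without rats 86 and 83 and -0.877 within the set of 8. Areg and Nrg1 had an r of -0.701 (permutation p = 0.0292, adjusted p = 0.219), which was -0.442 within the set of 8. These 3 pairs did not pass the adjustment.

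**Figure D5:**
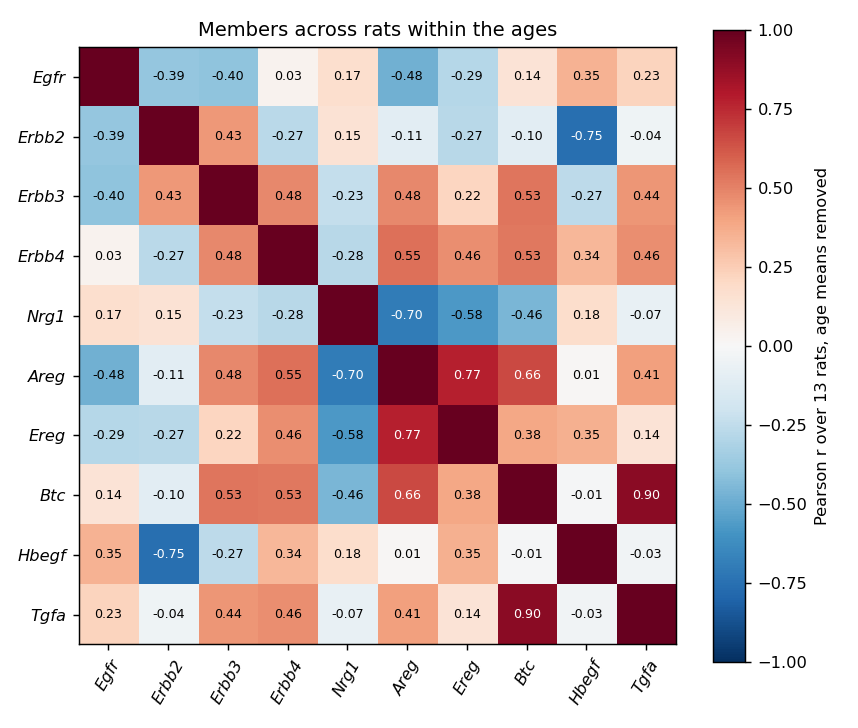
Pearson r between EGF receptor family genes over 13 rats after removal of the age means (colour scale and printed values from -1 to 1). Btc with Tgfa at 0.90 has the highest value and Erbb2 with Hbegf at -0.75 the lowest.

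For the called members, the genes most like each were sought by Pearson r within the ages, over 13 rats and among 8857 genes with a mean of at least 100 normalized counts. For Ereg these were Prkar2a (r = 0.916), Zcchc17 (r = 0.897) and Katna1 (r = 0.888). For Hbegf they were Dpm1 (r = 0.863), Denr (r = 0.861) and Nfkbiz (r = 0.841). None of these 6 genes was itself called between the ages. With so many genes ranked over so few rats, such values are a description and carry no test.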

How the data were processed

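RNA-seq of mammary epithelial cells covered 13 rats with 1 library each, grouped by the age in the sample titles. Estimated counts per gene were made by the authors with RSEM 1.2.22, per the labels, and the annotation is not given in the sources used here. The submitters' processing notes also name the build rn5, EdgeR and DESeq2. The deposited per-rat values are whole numbers that were scaled per library, and their unit is taken as a score, called normalized counts. The table of the authors also holds their own age comparison, with fold changes and abundances on the log2 scale, a test statistic and a signed value as scores, p-values with false discovery rates, and -log10 p-values. These columns, a status and a word on cell location were not used. The table gives no coordinates.

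All 14790 genes had a mean of at least 1 and were fitted with limma 3.58.1 in R 4.3.3 on log2(value + 1), with no covariate. Two-sided p-values were corrected over all genes by the Benjamini-Hochberg method, at a threshold of 0.05. A log2 fold change above 0 is higher at 6 weeks. It understates changes of low genes. The fit was tested on simulated data. Python 3.11.15, numpy 2.4.6 and pandas 2.3.3 gave medians, sums and permutation tests of 100000 resamples. The members and lists were chosen with earlier results of these data known.

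All members are described. From each list up to 4 called genes per direction with the smallest adjusted p are named, or the 2 with the smallest adjusted p where none was called. The values of 1 called gene are not reported here. Of genes most like a called member, the 3 with the highest r are named. Alternatives changed the scaling, the pseudocount (0.1), the low-value filter, limma's settings, the rats and the first residual component. Upstream sequences and gene order came from RefSeq (GRCr8).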

Additional observations from a re-analysis of the deposited data

Results flagged for a closer look

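Values of the members and of the pathway genes named above were checked for a rat far from the others of its age, in 58 groups of 29 genes, of which chance alone marks about 1 in 20. In 1 group a rat stood apart. Nrg2, the low neuregulin, had 17 normalized counts in rat 80 at 6 weeks against 5 in the next highest rat, a gap of 0.75 of the whole range (critical value 0.625). Rat 78 at 10 weeks also had 17.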

How the results depend on the processing

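Of 250 values of the members under alternative settings, 242 kept their direction and their side of the threshold. Part of this agreement was fixed in advance. The setting with no filter repeats the main fit, since all 14790 genes passed the main filter. The stricter filters cannot change a log2 fold change, and neither can limma's trend option or the first residual component as a term. Under sample quality weights 5647 genes were called in place of 2381, and the members gained Erbb4 at 6 weeks (2 called) and Egfr at 10 weeks (2 called), while the pathway lists rose from 20 calls to 36 and Erbb3 turned to 0.0036. In the set of 5 rats alone 0 genes passed in limma (1976 at an unadjusted p under 0.05), hence 0 members in either direction and 0 pathway genes, and the sign turned for Erbb2 (-0.019), Btc (0.93), Tgfa (0.15) and Epgn (-0.049). Of these 4, Epgn was called under sample quality weights and without rat 80. Nrg2 was called under those weights (limma adjusted p = 0.0164) and in the set of 8 rats (limma adjusted p = 0.0433). Without 1 rat the count of all genes ran from 1411 (without rat 70) to 2680 and was also low without rat 84 (1488) or rat 87 (1558), and the pathway lists ran from 13 (without rat 74) to 22 calls. The cause of these shifts was not tested, nor was the part that a smaller number of rats has in them. Under scaling to library size 1300 genes were higher at 6 weeks and 773 at 10 weeks, against 1288 and 1093, and 14 pathway genes were called. No paired analysis was possible because the rats of the 2 ages are different animals with no shared numbers. Read totals before scaling were not derived for every rat, so no counting interval is given.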
